A study of Equus caballus with 4 samples.

Results

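The AP-1 and NR4A immediate early genes were examined in differentiating equine satellite cells (ESC), which are stem cells of skeletal muscle. The 10 genes chosen were FOS, FOSB, FOSL2, JUN, JUNB, JUND, ATF3, EGR1, NR4A1 and NR4A3. Members were all gene probes whose gene name in the array annotation was exactly one of these symbols. Of the 10 genes, 7 had such a probe, among 24998 gene names on the array, and they were measured by 11 probes, 5 of them for ATF3. JUN and NR4A3 had no probe under their symbol, but 1 probe each could be named through its description, and these are given separately and not counted as member probes. No probe was found for JUND.

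Treated cells received GO (gamma-oryzanol, ferulic acid esters of plant sterols found in rice bran) at 0.125 µM for 24 h, with 3 mM hydrogen peroxide (H2O2) during the last 1 h, and were harvested on day 3 of differentiation. Control cells, also on day 3, received no GO. The labels do not say whether they received H2O2, whereas the paper describes a control with H2O2 and with the solvent of GO. By that description the arrays compare cells with and without GO, both under H2O2, and not a response to H2O2. The cells came from m. semitendinosus of young stallions, and per the methods a single primary line was chosen among several by viability and fusion. RNA of treated cells (Cy5, red) and of control cells (Cy3, green) was hybridised together on 4 horse arrays of 1 slide, called replicates 1 to 4. The dyes were not swapped, so that dye and treatment cannot be told apart. The labels give all 4 control samples the ending rep1, while the design lists 4 control replicates. If 1 control RNA was used throughout, the spread between control cultures is not part of the errors below. The share of gene spots well above background was 54.9% to 61.3% for control RNA and 56.7% to 61.4% for treated RNA. Pearson correlations of the log2 ratios between arrays, across probes, which are not independent replicates, ran from 0.174 (replicates 2 and 3) to 0.697 (replicates 3 and 4).

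Immediate early genes are transcribed within minutes of a stimulus from factors already present in the cell, and their mRNAs are short-lived. Fos and Jun proteins pair through leucine zippers to form AP-1, which binds DNA in the promoters and enhancers of many genes of growth, stress and matrix turnover. ATF3 is a stress-induced relative that can pair with Jun proteins, EGR1 is a zinc finger factor switched on by the same kinases, and NR4A1 and NR4A3 are orphan nuclear receptors. In muscle, these genes are known to respond to contraction, injury and oxidants, and Fos and Jun genes are expressed when satellite cells leave quiescence.

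NR4A1 and FOSB had more signal in treated than in control cells on all 4 arrays, with mean ratios of 1.27-fold and 1.26-fold. Both passed the test (limma, adjusted p under 0.05), as did 17.1% of all tested probes. Both calls were lost when replicate 1, 3 or 4 was left out, and in 3 of 11 other settings given below. FOSL2 was above 0 on all 4 arrays with a smaller mean log2 ratio of 0.12 ± 0.04 (SD, n = 4 arrays) and did not pass the test. FOS, JUNB, EGR1 and ATF3 had means between −0.09 and 0.14 and changed sign between arrays. Their ratios were negative on replicates 1 and 2 and mostly positive on replicates 3 and 4, except for FOS at 0.00 and ATF3 probe 2 at −0.01 on replicate 4. The ratio is red over green after normalisation, and a positive value stands for more signal in treated cells.

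The 60-base probes that carried these values were as follows, 5′ to 3′, with positions in the EquCab1 build. The FOSB and NR4A1 probes are shown because these genes passed the test, and the FOS probe because it belongs to the best known partner of Jun and did not pass. The FOSL2 probe ends on a stop codon, in capitals, so that it reads the last coding bases. FOSB lies at chr10:16095501-16095560 (plus strand), NR4A1 at chr6:69282153-69282212 (plus), FOS at chr24:20142566-20142625 (plus) and FOSL2 at chr15:64623997-64624056 (minus).
FOSB: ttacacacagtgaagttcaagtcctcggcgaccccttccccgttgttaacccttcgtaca
NR4A1: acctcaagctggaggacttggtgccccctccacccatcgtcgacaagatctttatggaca
FOS: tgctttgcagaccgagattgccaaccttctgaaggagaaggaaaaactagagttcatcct
FOSL2: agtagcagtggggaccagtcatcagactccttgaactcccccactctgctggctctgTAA

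The probes of the Jun genes are shown because they cover corresponding stretches of related genes. Capitals mark the bases that are identical when the end of the JUN probe is laid over the start of the JUNB probe. Over the 30 aligned bases 23 (76.7%) were identical, and the longest identical run was 8 bases. Both probes lie on unplaced sequence (Un) of EquCab1, JUN at 255545994 to 255546053 (plus) and JUNB at 199780176 to 199780235 (minus).
JUN: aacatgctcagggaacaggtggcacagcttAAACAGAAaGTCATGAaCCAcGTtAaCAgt
JUNB: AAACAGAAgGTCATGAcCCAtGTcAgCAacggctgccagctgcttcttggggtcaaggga

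The 5 ATF3 probes were tiled 1 base apart over chr5:17272759-17272822 (minus strand), so that they read nearly the same target and are not replicates of the gene. The first and the last of them are shown, with the 56 bases common to all 5 in capitals. The first ends on a stop codon.
ATF3 probe 1: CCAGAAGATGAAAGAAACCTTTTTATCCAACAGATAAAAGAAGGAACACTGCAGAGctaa
ATF3 probe 5: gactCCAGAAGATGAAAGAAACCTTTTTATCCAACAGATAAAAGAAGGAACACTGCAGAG
The EGR1 probe lies at chr14:37296035-37296094 (minus) and the NR4A3 probe at chr25:29063414-29063473 (minus). An annotation of EquCab1 was not used here, so the exon that each probe reads is not given.

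All 11 member probes and the JUN probe were well above background in both channels on all 4 arrays, and all 11 were among the 24230 probes tested. Of the 11 member probes 2 passed the test (limma, Benjamini-Hochberg adjusted p under 0.05), where 17.1% of all tested probes did. Both were higher (9.49% of all probes), and 0 of 11 were lower (7.59% of all probes). The 2 probes belonged to 2 of the 7 genes. An unadjusted limma p under 0.05 was found in 3 of the 11 member probes and in 8898 of the 24230 tested probes. With a fold change of at least 1.3 as a further requirement 0 member probes passed, against 1.42% of all probes. Above 0 on all 4 arrays were 3 member probes (22.6% of all probes), and 0 were below 0 on all 4 (21.2% of all probes). The median log2 ratio of the member probes was 0.00, as was that of all tested probes. The SD over the arrays had a median of 0.224 for the member probes, 5 of which share the ATF3 target, and of 0.0934 over all tested probes. Among the members it ranged from 0.04 (FOSL2) to 0.46 (EGR1).

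**Figure D1:**
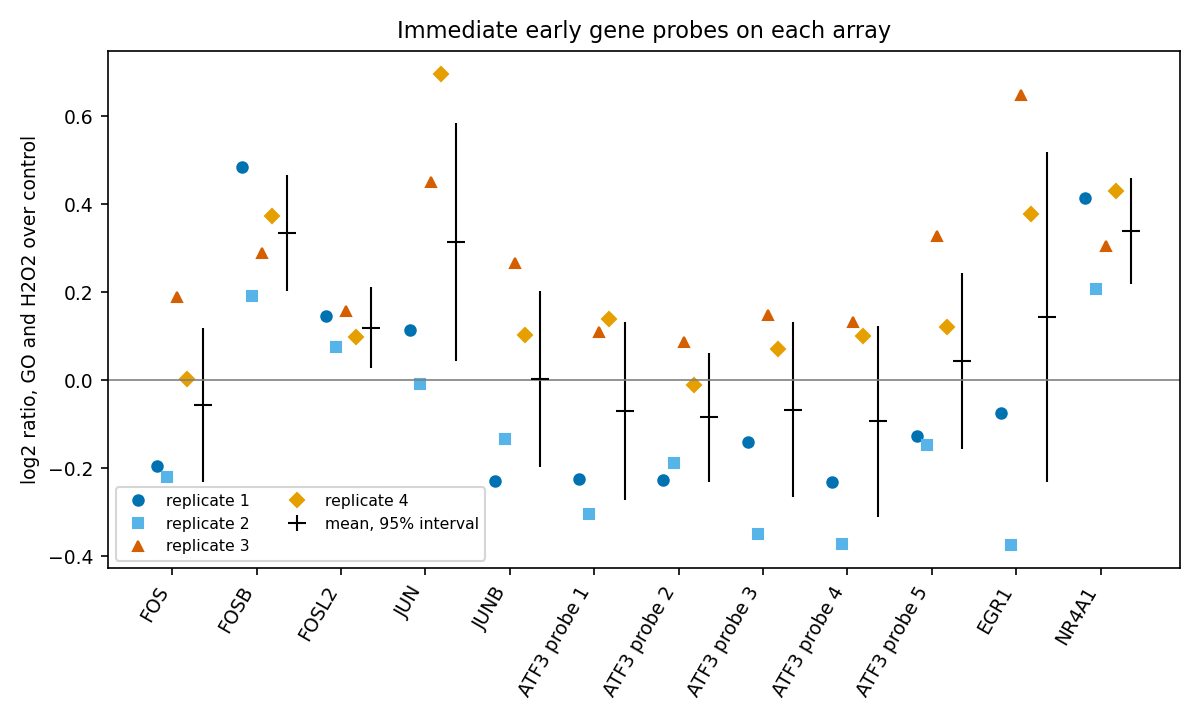
Log2 ratio of GO and H2O2 over control (y axis) for each probe (x axis). Points are the 4 arrays, and the black bar is the mean with its 95% interval from limma. FOSB, FOSL2 and NR4A1 lie above 0 on every array, while FOS, JUNB, EGR1 and the ATF3 probes lie below 0 on replicates 1 and 2.

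Among the Fos genes, FOSB encodes a Fos protein whose truncated splice form is known to be long-lived. The FOSB probe had scanned mean signals of 2303, 1982, 1888 and 1592 in the treated channel on replicates 1 to 4, and of 1412, 1385, 1272 and 1111 in the control channel. Every scanned treated value exceeded every scanned control value. These are signals of different dyes before normalisation, and the share of all probes with such a separation was not counted. The log2 ratios after normalisation were 0.48, 0.19, 0.29 and 0.37, with a mean of 0.34 ± 0.12 (SD, n = 4 arrays; 95% interval 0.20 to 0.47; limma adjusted p = 0.0194). Replicate 2 had the lowest ratio. As normalised single-channel values the groups overlapped, with log2 signals of 10.65 to 11.05 in treated and 10.27 to 10.76 in control cells. After normalisation the difference therefore rests on the comparison within each array. FOSB did not pass with median centring in place of loess (0.31, adjusted p = 0.679), with no replicate block (adjusted p = 0.134), with the methods' t-test (adjusted p = 0.104) or without replicate 1, 3 or 4 (adjusted p up to 0.0880).

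FOSL2 encodes Fra-2, a Fos protein without the strong activation domain of FOS. Its treated signals were 334, 303, 281 and 270 and its control signals 280, 271, 235 and 270.3. The log2 ratios were 0.15, 0.08, 0.16 and 0.10 (mean 0.12 ± 0.04, 95% interval 0.03 to 0.21, limma adjusted p = 0.0756). These ratios were all positive and lay closer together than those of the other members, and 92.6% of the tested probes had a larger SD. The normalised signals overlapped at 8.18 between the lowest treated and the highest control value.

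FOS, the founding member of the family, had treated signals of 294, 225, 258 and 236 and control signals of 316, 251, 206 and 245. The log2 ratios were −0.20, −0.22, 0.19 and 0.00, with a mean of −0.06 ± 0.19 (95% interval −0.23 to 0.12, adjusted p = 0.612). The ratio was clearly negative on replicates 1 and 2, positive on replicate 3 and at 0 on replicate 4.

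Among the Jun genes, JUNB encodes a Jun protein that is often a weaker activator than JUN itself. Its treated signals were 903, 827, 785 and 666 and its control signals 946, 753, 547 and 582. The log2 ratios of −0.23, −0.13, 0.27 and 0.10 cancelled to a mean of 0.00 ± 0.23 (95% interval −0.20 to 0.20, adjusted p = 0.986). Its sign turned with median centring (−0.021).

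JUN, the partner of Fos proteins that can also pair with itself, was read by the probe named through its description. The treated signals were 12120, 10390, 8165 and 9756 and the control signals 8939, 7731, 4819 and 5132. The log2 ratios were 0.11, −0.01, 0.45 and 0.70, with a mean of 0.31 ± 0.32 (95% interval 0.04 to 0.58, adjusted p = 0.0986). The ratio was near 0 on replicate 2 and far above it on replicates 3 and 4. Without replicate 2 the mean was 0.42 and passed (limma adjusted p = 0.0400). JUN did not pass without replicate 1, 3 or 4 (limma adjusted p = 0.151, 0.238 and 0.268), and it passed in 0 of 11 other settings. A larger SD than that of JUN was found in 3.60% of all tested probes.

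ATF3 had dim signals on every probe. Probe 1 had treated signals of 192, 189, 163 and 184 and control signals of 223, 234, 161 and 186. Its log2 ratios were −0.22, −0.30, 0.11 and 0.14. Over the 5 probes the mean ratio of an array was −0.19, −0.27, 0.16 and 0.08 on replicates 1 to 4. All 5 probes were negative on replicates 1 and 2 (−0.37 to −0.13), all 5 were positive on replicate 3 (0.09 to 0.33), and on replicate 4 they ran from −0.01 to 0.14. The SD between probes within an array had a median of 0.0777, while the array means had an SD of 0.209. The spread of ATF3 was therefore a spread between arrays more than between neighbouring probes. The means of the 5 probes lay between −0.09 and 0.04, with adjusted p-values of 0.357 to 0.732, and the mean over the probes was −0.05 (adjusted p = 0.652).

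EGR1 had the widest spread of the members. Its treated signals were 10350, 7419, 6618 and 6897, and its control signals were 8767, 7188, 3420 and 4570. The control signal was lower on replicates 3 and 4 than on replicates 1 and 2. The log2 ratios were −0.08, −0.37, 0.65 and 0.38 (mean 0.14 ± 0.46, 95% interval −0.23 to 0.52, adjusted p = 0.539). Of all tested probes, 1.40% had a larger SD. The mean turned to −0.024 without replicate 3.

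NR4A1 encodes Nur77, a receptor that is induced by exercise in skeletal muscle and acts there on glucose and fat metabolism. Its treated signals were 3842, 3593, 3157 and 3201 and its control signals 2433, 2422, 2080 and 2112. Every scanned treated value exceeded every scanned control value, as for FOSB, with the same limits of unnormalised dyes and an uncounted share. The log2 ratios were 0.42, 0.21, 0.31 and 0.43, with a mean of 0.34 ± 0.10 (95% interval 0.22 to 0.46; limma adjusted p = 0.0166). NR4A1 was also the member whose normalised channel signals did not overlap, at 11.48 to 11.78 in treated and 11.06 to 11.47 in control cells. The gap between 11.47 and 11.48 is narrow. The share of all tested probes without overlap was not counted, so this does not set NR4A1 apart from other probes. It did not pass with median centring (0.33, adjusted p = 0.714), with no replicate block (adjusted p = 0.0792), with the methods' t-test (adjusted p = 0.0907) or without replicate 1, 3 or 4 (adjusted p up to 0.0820).

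NR4A3, the gene of NOR-1, had a probe that was not well above background in either channel on any array. Its signals were 57.8 to 64.3 (treated) and 90.2 to 105 (control), against local backgrounds of 41 to 47 and 43.5 to 54. It was not tested and is not given a fold change.

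**Figure D2:**
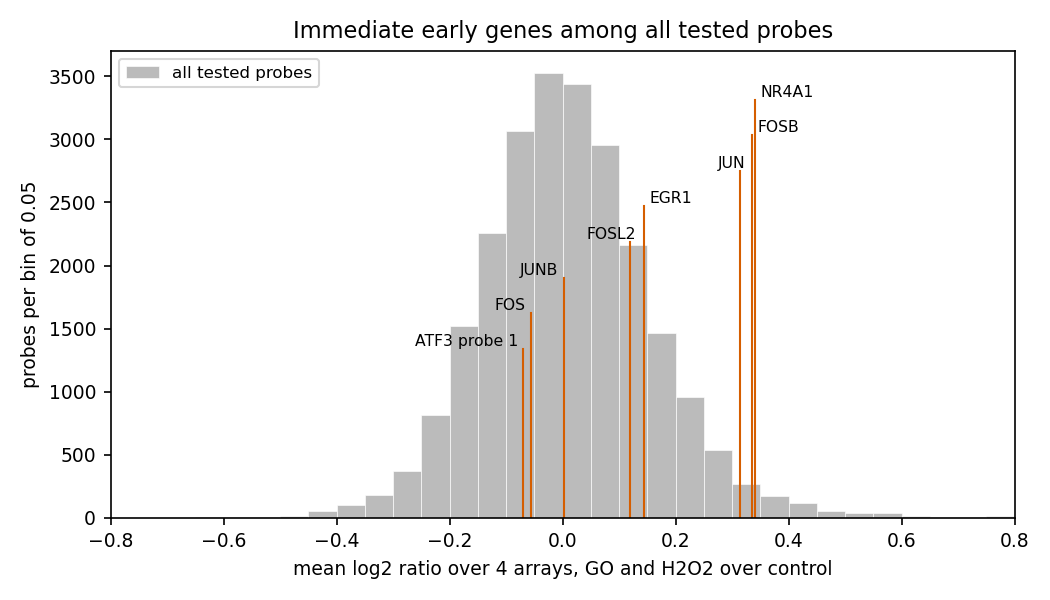
Number of tested probes (y axis) by mean log2 ratio over 4 arrays (x axis, bins of 0.05, shown from −0.8 to 0.8; 57 probes lie outside), with lines at the members, 1 probe of ATF3, and JUN. The height of a line has no meaning. NR4A1 and FOSB, both at 0.34, and JUN at 0.31 lie on the upper flank, and the other genes lie within the bulk of the probes.

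The change of sign between arrays was seen only after the values were known and is given as a description. A negative ratio on replicates 1 and 2 with a positive one on replicates 3 and 4 was found in 7 of the 11 member probes (63.6%) and in 1475 of all tested probes (6.09%). These were the FOS, JUNB and EGR1 probes and 4 of the 5 ATF3 probes, and since the ATF3 probes share their target the 7 probes stand for 4 genes. A weaker condition, that both of replicates 1 and 2 were below both of replicates 3 and 4, was met by 8 of 11 member probes (72.7%) and by 25.8% of all probes. With median centring it was met by 8 of 11 against 15.1%, and with the processed signals of the scanner software by 8 of 11 against 27.7%. The reverse order was met by 0 of 11 member probes and by 22.2% of all probes (4.93% with median centring). Replicates 3 and 4 were also the arrays whose ratios correlated best over all probes.

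The mean ratio of replicates 3 and 4 minus that of replicates 1 and 2 was 0.74 for EGR1, 0.52 for JUN, 0.37 for JUNB and 0.30 for FOS, and it was 0.25 to 0.42 for the ATF3 probes. The difference was −0.01 for FOSB, 0.02 for FOSL2 and 0.06 for NR4A1. Over all tested probes its median was 0.01, with quartiles of −0.08 and 0.10. A small difference between these pairs does not mean equal ratios on all arrays, since FOSB ran from 0.19 to 0.48.

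**Figure D3:**
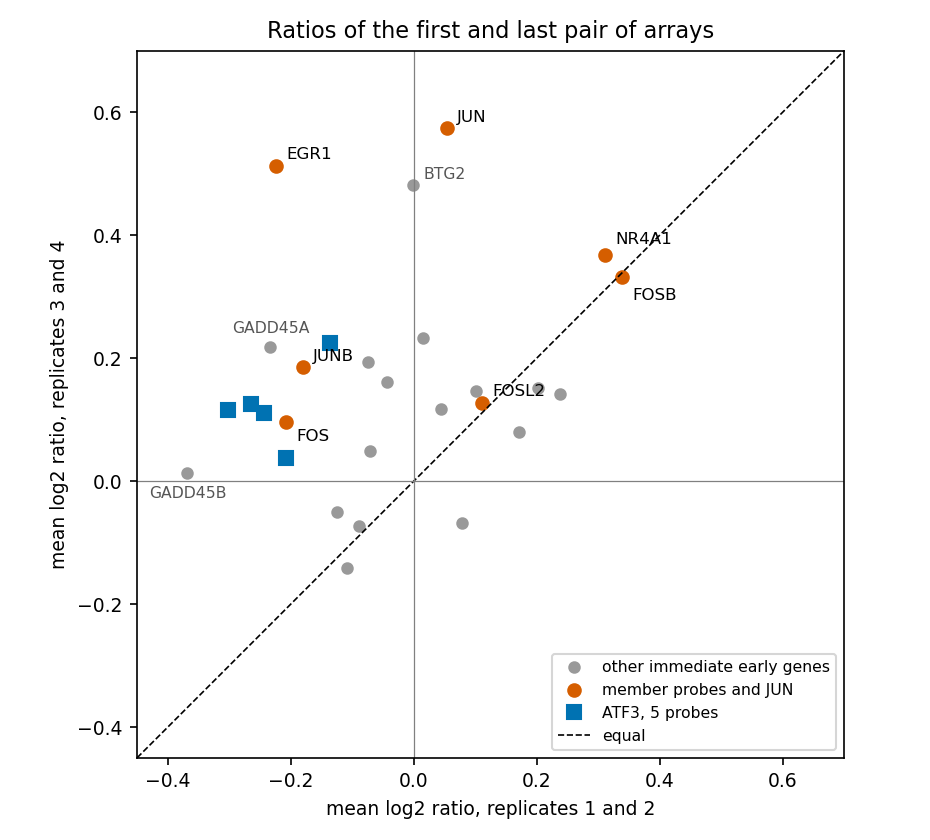
Mean log2 ratio on replicates 3 and 4 (y axis) against that on replicates 1 and 2 (x axis) for the member probes and JUN (orange, ATF3 as blue squares) and 16 other immediate early genes (grey); the dashed line marks equal values. FOSB, FOSL2 and NR4A1 lie near the line, and EGR1, JUN, JUNB, FOS and ATF3 lie above it.

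The channels differed in where this shift lay. On the normalised log2 scale the control signal of EGR1 was lower by 0.67 on replicates 3 and 4 than on replicates 1 and 2 (difference −0.67), while its treated signal differed by 0.06. JUN had −0.42 in the control channel and 0.10 in the treated channel, and JUNB had −0.28 and 0.09. For EGR1 and JUN the range over the 4 arrays was wider in the control channel, while JUNB had ranges of 0.396 in the control and 0.364 in the treated channel. The ATF3 probes had −0.28 to −0.12 in the control and 0.07 to 0.24 in the treated channel. FOS had −0.12 in the control and 0.18 in the treated channel. For EGR1 the highest and lowest array differed by 0.77 in the control channel and by 0.29 in the treated channel, against medians over all probes of 0.215 and 0.222. A signal of a single channel also holds differences between the spots of different arrays, which both channels share. The part of the control culture, the dye and the array in these shifts was not tested.

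**Figure D4:**
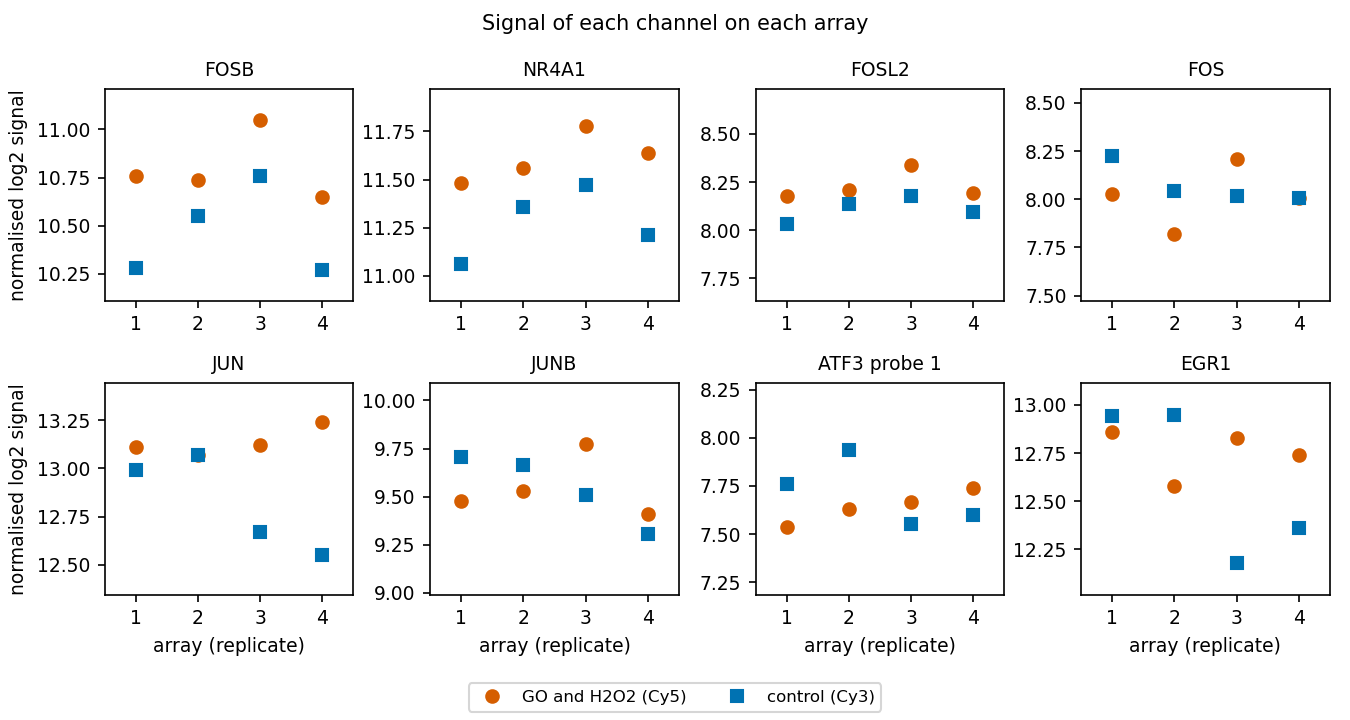
Normalised log2 signal (y axis, 1.1 units high in every panel) of treated cells (Cy5, circles) and control cells (Cy3, squares) on each array (x axis), for 8 genes. NR4A1 has every treated point above every control point, by a narrow margin. The control points of EGR1 and JUN are lower on replicates 3 and 4. Points of equal height overlap (JUN on replicate 2, FOS on replicate 4).

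Other genes of the pathway were taken as lists, on the brightest tested probe of each gene. Of 16 tested genes among other immediate early genes (28 listed, 17 with a probe), 0 passed in either direction with limma (17.1% of all probes). An unadjusted limma p under 0.05 was found in 4 of the 16, and in 8898 of the 24230 tested probes. The median log2 ratio of the 16 genes was 0.06 (0.00 over all probes). Lower on both of replicates 1 and 2 than on both of replicates 3 and 4 were 8 of the 16 (50%), against 25.8% of all probes. The difference between these pairs of arrays was 0.48 for BTG2, an antiproliferative p53 target, 0.45 for GADD45A and 0.38 for GADD45B, which encode growth arrest and DNA damage proteins, and 0.27 for the MAP kinase phosphatase DUSP1. IER3 (−0.10) and CTGF (−0.15) went the other way. These 6 genes were picked after their values were seen.

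Of the relatives of AP-1 (other ATF, CREB, BATF, MAF and NFE2 genes), 13 of 21 could be tested, 0 were higher (9.49% of all probes) and 1 was lower (7.59%), with a median of −0.04. The count of 1 in 13 is near the share over all probes. The gene lower was CREB1, the cAMP response factor, at −0.24 ± 0.12 (ratios of −0.14, −0.33, −0.34 and −0.13; limma adjusted p = 0.0339). It has 3 probes, of which 1 passed, and the highest of the others had a mean of 0.06. The call was lost without any 1 of the replicates (adjusted p 0.0609 to 0.0961), with median centring (0.769), with no replicate block (0.126) and with the methods' t-test (0.136). In this list 6 of 13 genes (46.2%) were lower on replicates 1 and 2 than on replicates 3 and 4, against 25.8% of all probes. Of the relatives of NR4A and EGR, 4 of 8 were tested and 0 passed with limma (17.1% of all probes). An unadjusted limma p under 0.05 was found in 0 of the 4, against 8898 of the 24230 tested probes. Their median was 0.02, while NR4A2, EGR3 and EGR4 were too dim to be tested. Of the 4 tested, 2 were lower on replicates 1 and 2 than on replicates 3 and 4, and 1 had the reverse order (22.2% of all probes).

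Among the kinases and factors that act upstream of immediate early genes, 18 of 30 were tested, 2 were higher (9.49% of all probes) and 0 lower (7.59%), with a median of −0.01. The count of 2 in 18 is near the share over all probes. It rests on the brightest probe of each gene. For MAP2K4 that probe had −0.14 (limma adjusted p = 0.0579), while its other probe had 0.145 and passed. MEF2A (0.26 ± 0.10, adjusted p = 0.0233) and MEF2C (0.20 ± 0.05, adjusted p = 0.0274, both of its 2 probes past the threshold) encode muscle transcription factors that bind the NR4A1 and JUN promoters. MEF2A had ratios of 0.41, 0.20, 0.23 and 0.21. Both calls were lost without replicate 1, 3 or 4 (adjusted p up to 0.0902 for MEF2A and 0.113 for MEF2C), with median centring (0.761 and 0.777), with no replicate block (0.130 and 0.0625) and with the methods' t-test (0.104 and 0.0817), and MEF2A did not pass with the processed signals (adjusted p = 0.0836). Over the alternatives the ratio of MEF2C ran up to 0.34. Of these 18 genes, 3 (16.7%) were lower on replicates 1 and 2 than on replicates 3 and 4 (25.8% of all probes). The reverse was found in 1 (5.56%, against 22.2% of all probes).

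Of known AP-1 targets 8 of 17 were tested, 2 were higher (9.49% of all probes) and 0 lower (7.59%), with a median of 0.10. HMOX1, which encodes the haem-degrading stress enzyme heme oxygenase 1, had 0.50, 0.57, 0.85 and 0.16 on replicates 1 to 4 (0.52 ± 0.28, adjusted p = 0.0251). TGFB1, a cytokine of matrix formation, had 0.15 ± 0.04 (adjusted p = 0.0489). HMOX1 was lowest on replicate 4 and above 0 on all arrays. Its call was lost without replicate 1, 3 or 4 (adjusted p up to 0.0989) and that of TGFB1 without any 1 of the replicates (adjusted p up to 0.140), and over the alternatives the ratio of HMOX1 ran up to 0.91. HMOX1 passed in 8 of 11 other settings and not with median centring (adjusted p = 0.551), no replicate block (0.135) or the methods' t-test (0.149). TGFB1 passed in 5 of 11 and not with these 3 (adjusted p = 0.843, 0.177 and 0.0913), with normexp offset 0 (0.0587), without the filter on dim probes (0.0541) or with trend and robust estimation (0.0503). The matrix proteases MMP1, MMP3 and MMP13, and IL6 and IL8, had probes that were too dim to be tested. Of the 8 tested targets, 1 was lower on replicates 1 and 2 than on replicates 3 and 4 (25.8% of all probes). The reverse was found in 2 of the 8 (22.2% of all probes).

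Markers of the labelled cell type and of other cell types were read beside these genes. Of 9 tested markers of satellite cells and myotubes (12 listed), 5 were higher and 0 lower (9.49% and 7.59% of all tested probes), with a median log2 ratio of 0.16. Their summed signal on the log2 scale was 17.83 to 18.02 in treated and 17.50 to 17.67 in control cells. PAX7, CDH15 and ITGA7 had no probe under their names. Of 4 tested fibroblast markers 1 was higher (THY1) and 1 lower (LUM), with summed signals of 17.42 to 17.60 and 17.19 to 17.46. Of 2 tested immune markers 1 was lower (CD14), with 11.66 to 11.85 and 11.81 to 12.01. The 5 endothelial and 3 adipocyte markers with a probe were likewise too dim. Lower on replicates 1 and 2 than on replicates 3 and 4 were 0 of 9 satellite cell markers (25.8% of all probes). For fibroblast markers it was 2 of 4 and for immune markers 0 of 2. The reverse was found in 1 of the 9, 0 of the 4 and 0 of the 2 (22.2% of all probes). The part of cell composition in the higher treated signal of FOSB and NR4A1 was not tested. A change in the number of cells of a type cannot be told apart from a change in RNA per cell.

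The probes most like FOSB and NR4A1 over the 4 arrays were found by the root mean square difference of the log2 ratios, among 14672 tested probes with a gene symbol. For FOSB these were probes of WWP2 (difference 0.0135), an E3 ubiquitin ligase, RBFOX1 (0.0286), a splicing factor of muscle and brain, and WWP2 again (0.0297). The closest WWP2 probe had 0.47, 0.19, 0.29 and 0.35. For NR4A1 they were DDAH2 (0.0218), an enzyme of dimethylarginine breakdown, CRABP2 (0.0232), a carrier of retinoic acid, and the ribosomal protein gene RPS19 (0.0293). The mean of RPS19 was 0.36, but 0.09 (adjusted p = 0.213) once a running median over signal was taken out. With only 4 arrays such likeness describes the order and size of 4 values.

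**Figure D5:**
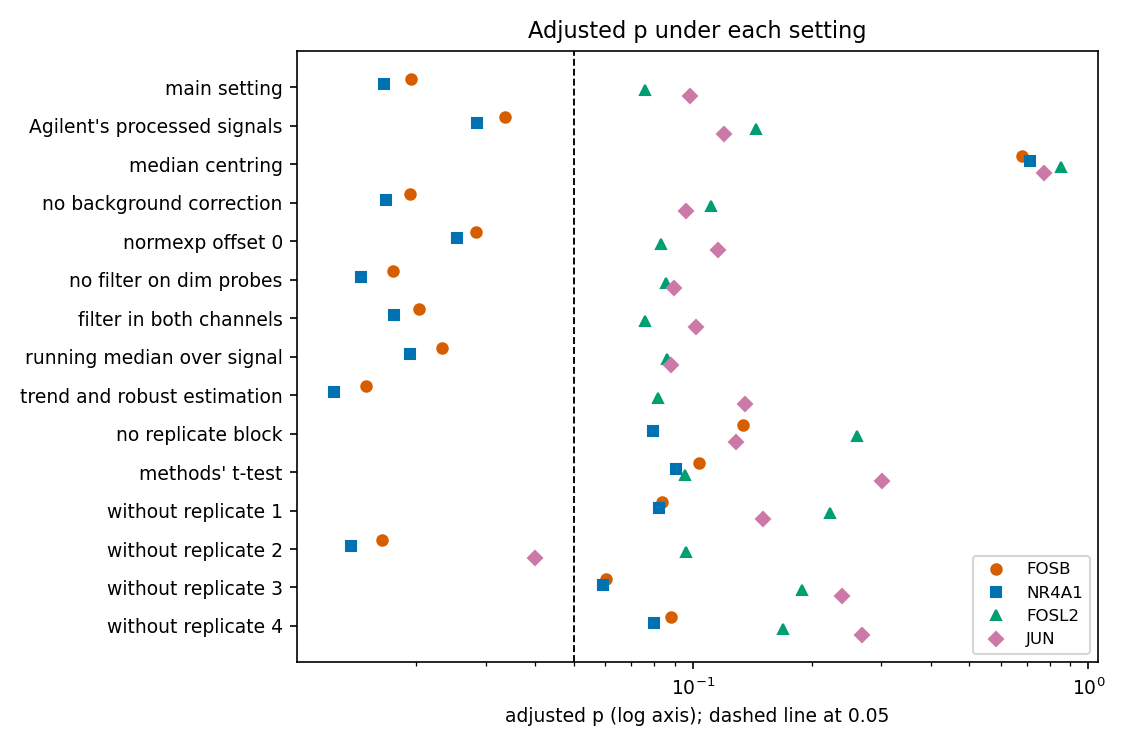
Limma adjusted p (x axis, log scale) of FOSB, NR4A1, FOSL2 and JUN under each setting (y axis), except for the methods' t-test, which gave its own adjusted p. The dashed line is at 0.05. FOSB and NR4A1 are to the left of it in the main setting and to the right of it with median centring, with the methods' t-test, with no replicate block and without replicate 1, 3 or 4.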

How the data were processed

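RNA of treated (Cy5) and control (Cy3) ESC was hybridised on 4 two-colour Agilent horse arrays, and the number of arrays limits the precision. The deposited files are scanner output with spot intensities, and their headers name Agilent Feature Extraction (version 10.10.1.1) as the program that the authors used. The deposited log10 ratio of processed red over green is the same in the scanner files and the series matrix (largest difference 0). The build of the probe positions was EquCab1.

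Background medians were removed from mean intensities by normexp (offset 50), and arrays were loess normalised within arrays with control spots at weight 0. Outlier spots (7 to 16 an array) were left out, spots of a probe were averaged, and no spot was saturated (0). The median log2 ratio before normalisation was −0.29 to −0.11. Probes were kept where the red or the green spot exceeded background clearly on each of the 4 arrays (24230 of 43603 probes, 55.6%). The mean log2 ratio was tested against 0 with limma version 3.58.1 (R version 4.3.3), two-sided, Benjamini-Hochberg adjusted over all probes kept. Student's test of the study's methods, taken here on the log2 ratios against 0, is called the methods' t-test. Its adjusted p-values hold no fold change limit, whereas the methods also required a fold change of at least 1.3. The paper's own list of genes nevertheless holds smaller fold changes. The fit was tested on simulated data.

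The members and lists were chosen with earlier results of these data known. Named genes were all members, genes of the other lists past the threshold (at most 4 a list, smallest p), and the 3 probes nearest to each member past it. Outside this rule, BTG2, GADD45A, GADD45B, DUSP1, IER3, CTGF and MAP2K4 were named after their values were seen. Cell type markers are given as counts, with the genes past the threshold named for the fibroblast and immune lists. Alternatives were the processed signals, the series matrix, median centring, no background correction, normexp offset 0, no filter, a filter in both channels, a running median over signal, trend and robust estimation, no replicate block, the methods' t-test and leaving out each replicate. Single-channel log2 signals came from the loess values after Aquantile normalisation. Sequences and positions came from the scanner files.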

Additional observations from a re-analysis of the deposited data

How the results depend on the processing

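Against 4137 probes past the threshold (2299 higher, 1838 lower), the count came to 12 (12 higher, 0 lower) with median centring, 594 (379 and 215) with the channels fitted as separate samples and no replicate block, and 5 (2 and 3) with the methods' t-test. The other alternatives gave 3402 to 5298. The processed signals and the series matrix hold the same values but are counted separately among the 11 alternatives. Leaving out 1 replicate gave 0 to 3899 probes (0 to 2079 higher, 0 to 1820 lower): 2 without replicate 1, 3899 when replicate 2 was left out, 38 without replicate 3, and without replicate 4 it was 0 (6694 at an unadjusted limma p under 0.05). Of the member probes and genes, 2 passed in the main setting and 0 with median centring, with no replicate block and with the methods' t-test, and 0 to 2 when a replicate was left out: 0 without replicate 1, 3 or 4. In these settings 2 or 3 member probes had an unadjusted p under 0.05. So did 1571 (median centring) to 7309 (without replicate 3) of the 24230 tested probes. The cause was not tested. FOSB kept a log2 ratio of 0.31 to 0.36 over 11 alternatives and passed in 8 of them (adjusted p 0.0149 to 0.679, 0.134 with no replicate block), and NR4A1 kept 0.33 to 0.35 and passed in 8 (0.0124 to 0.714, 0.0792 with no replicate block). JUNB changed sign with median centring (−0.021) and with normexp offset 0 (−0.0012), and ATF3 probe 5 with the processed signals and the series matrix values (−0.017 in both). When a replicate was left out, the range was −0.086 to 0.079 for JUNB, −0.024 to 0.32 for EGR1, −0.14 to 0.0091 for ATF3 probe 1, −0.14 to 0.027 for ATF3 probe 3 and −0.051 to 0.11 for ATF3 probe 5. ATF3, FOS and FOSL2 signals were dim, which limits their ratios.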
